A study of Mus musculus with 28 samples.

Results

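The genes described here are 47 genes of the cell division programme, chosen by name among the 48587 genes of the count table: 17 act in S phase, 28 in mitosis, and *Foxm1* and *Mybl2* encode transcription factors that drive mitotic genes. RNA-seq had been performed on FACS-isolated CD11b+CD45low hippocampal microglia of 28 mice, with 1 library for each mouse. All mice were 16 weeks old. The comparisons ask how the transgene, the housing of the mice and antibiotic treatment bear on the expression of these genes. All 47 genes were found in the table, and all 47 passed the filter on low counts.

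The 5xFAD mice are a model of Alzheimer's disease on the C57BL/6J background. Heterozygous males carry mutant human *APP* and *PS1* transgenes that are driven by the Thy-1 promoter in neurons, so microglia are not the intended site of transgene expression. WT mice are their non-transgenic littermates. SPF (specific pathogen-free) mice formed groups of 5 WT and 3 5xFAD animals. GF (germ-free) mice, raised without microbes, formed groups of 4 WT and 5 5xFAD animals. ABX mice, 5 WT and 6 5xFAD, were SPF mice that drank an antibiotic cocktail of vancomycin, cefoxitin, gentamicin and metronidazole for 8 weeks. GF mice were bred in Bern and the other mice in Freiburg, so a difference between GF and other mice may be one of housing or of origin, and these cannot be told apart.

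Libraries held between 14441610 and 29977395 reads. Microglial marker genes summed to between 39803 and 58441 CPM (reads of a gene scaled to the total of its library) in every library, and *Cst7*, a gene of plaque-associated microglia, was at 5.75 to 17.2 CPM in WT and at 521 to 1528 CPM in 5xFAD mice. CPM of the cell cycle genes was scaled to the counts of the genes tested instead, with TMM normalisation factors. FAD_GF_201 is 5xFAD by its title and genotype but WT by its description (mice are called by their titles, with FAD for 5xFAD); its *Cst7* level was 739 CPM and it is used as 5xFAD. FAD_ABX_1482 stood apart, with cell cycle genes near WT level and *Cst7* at 665 CPM, and counts that rest on it are given with and without it. Neutrophil markers (8 genes) summed to 61.1 to 263 CPM in the SPF 5xFAD mice and to 144 CPM in FAD_ABX_1151, and to at most 0.774 CPM in all other mice. The sample descriptions are numbered in 3 styles, which no source calls batches. The first style covers SPF WT and ABX WT, the second SPF 5xFAD and FAD_ABX_1151, and the third both GF groups and what remains of ABX 5xFAD. GF genotypes are thus compared within 1 style, as are SPF WT and ABX WT; in SPF and ABX mice genotype and style cannot be told apart, nor can GF and SPF from style.

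A cell that is to divide first commits to DNA synthesis, through cyclin E and transcription factors of the E2F family, which switch on genes for origin licensing, the replicative helicase and nucleotide supply. Genes for mitosis are switched on later, largely by the MuvB complex together with B-MYB (*Mybl2*) and FOXM1, through CHR elements and CCAAT boxes near their start sites. Microglia are long-lived cells that renew slowly in the healthy brain, and they are known to divide more around amyloid plaques.

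Promoter sequences are shown because the elements matched in them differ in frequency between S-phase and mitotic genes. RefSeq (GRCm38.p6) gave windows from 250 bases before to 50 bases after the start site for 38 of the 47 genes, with 41 windows in all; *Foxm1*, *Aurkb*, *Ccne2*, *Kif20a*, *Ccna2*, *Mcm4*, *Tpx2*, *Gins2* and *Stmn1* had none. Both strands were searched for the E2F sites spelled TTCGCGC, which also included those spelled TTGGCGC, those spelled TTCCCGC and further those spelled TTGCCGC, for the CHR element TTTGAA and for CCAAT. An E2F match lay in 68.8% of S-phase windows, in 16.7% of mitotic windows and in 9.57% of all 32851 mouse windows. The CHR element lay in 6.25% of S-phase, 79.2% of mitotic and 17.9% of all windows. CCAAT was common to both parts, with 68.8% of S-phase, 83.3% of mitotic and 37.4% of all windows. A CHR element together with CCAAT lay in 70.8% of mitotic windows against 6.25% of S-phase windows and 6.95% of all windows. A match describes letters only and is no evidence of binding. The 150 bases before the start site are printed 5′ to 3′ on the strand of the gene, with every match on either strand in capitals, for 3 mitotic and 3 S-phase genes with values described further on; they were chosen after the matches were seen.
Cdk1 (chr10:69352913-69353062, minus strand): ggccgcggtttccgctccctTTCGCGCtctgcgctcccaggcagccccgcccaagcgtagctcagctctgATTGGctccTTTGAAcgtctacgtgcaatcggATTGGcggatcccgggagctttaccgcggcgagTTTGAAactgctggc
Top2a (chr11:99024190-99024339, minus strand): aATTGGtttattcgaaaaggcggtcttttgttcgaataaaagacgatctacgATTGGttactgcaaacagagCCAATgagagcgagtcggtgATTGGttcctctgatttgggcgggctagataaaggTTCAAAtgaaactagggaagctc
Ccnb2 (chr9:70421555-70421704, minus strand): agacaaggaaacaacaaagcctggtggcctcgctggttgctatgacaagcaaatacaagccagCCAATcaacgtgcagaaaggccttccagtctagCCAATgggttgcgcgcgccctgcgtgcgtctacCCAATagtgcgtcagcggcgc
Mcm5 (chr8:75109359-75109508, plus strand): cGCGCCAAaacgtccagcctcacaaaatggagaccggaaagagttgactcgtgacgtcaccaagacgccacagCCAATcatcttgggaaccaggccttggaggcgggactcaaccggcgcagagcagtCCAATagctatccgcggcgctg
Uhrf1 (chr17:56303187-56303336, plus strand): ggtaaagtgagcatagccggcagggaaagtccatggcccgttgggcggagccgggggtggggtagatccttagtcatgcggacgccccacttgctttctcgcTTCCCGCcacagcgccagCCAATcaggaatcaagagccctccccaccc
Mcm7 (chr5:138171267-138171416, minus strand): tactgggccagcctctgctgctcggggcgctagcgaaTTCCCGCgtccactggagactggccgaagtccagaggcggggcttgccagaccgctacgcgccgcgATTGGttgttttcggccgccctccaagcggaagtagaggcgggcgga
In *Cdk1* and *Top2a* a CHR element lies closer to the start site than any CCAAT box, and *Ccnb2* has CCAAT boxes alone in this stretch. *Cdk1* also has an E2F match. The S-phase genes *Mcm5*, *Uhrf1* and *Mcm7* each have an E2F match, CCAAT and no CHR element in the stretch shown. The further windows of *Uhrf1* and *Mcm7* have 0 E2F matches in the same 150 bases, and *Cdt1* has 0 matches of any of the motifs there.

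Levels differed widely among the 47 genes. Per kilobase of exon, the mean over 28 mice ran from 0.179 CPM for *Mybl2*, with a median of 13 reads in a library, to 21.4 CPM for *Mcm3*, a helicase subunit, with a median of 1630 reads. The 6 *Mcm* helicase genes, *Pcna* and *Cdt1* were among the higher ones, whereas *Cdc6* (median 23 reads), *Ccne1* (18 reads) and *Ccnb1* (34 reads) were counted with little precision. Libraries were not stranded, so reads where a gene overlaps another cannot be told apart. Exons of *Gins2* overlap *Gse1* over 67.3% of their length, those of *Kif20a* overlap *Cdc23* over 33.2% and those of *Ube2c* overlap *Tnnc2* over 22.8%. Other overlaps covered at most 17.4%.

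Cell cycle genes were higher in microglia of 5xFAD mice than of WT mice in all 3 conditions. The mean log2 CPM over the 47 genes was 1.51 ± 0.30 (SD, n = 5) in SPF WT and 3.12 ± 0.27 (n = 3) in SPF 5xFAD mice. It was 2.32 ± 0.15 (n = 4) in GF WT and 3.29 ± 0.24 (n = 5) in GF 5xFAD mice. In ABX WT mice it was at 1.66 ± 0.28 (n = 5) and in ABX 5xFAD mice at 3.11 ± 0.75 (n = 6), or 3.41 ± 0.22 (n = 5) without FAD_ABX_1482. The highest WT mouse lay at 2.53 and the lowest 5xFAD mouse other than FAD_ABX_1482 at 2.81, so that all 5xFAD mice but this one lay above all WT mice. In sorted bulk samples a larger share of dividing cells and more of these transcripts per cell cannot be told apart.

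Both parts of the programme were higher in 5xFAD mice, mitotic genes by the larger factor; the difference between the parts was not tested. Summed over the 17 S-phase genes, the level was 248 ± 19.5 CPM in SPF WT and 384 ± 43.7 CPM in SPF 5xFAD mice. For the 28 mitotic genes the sum was 59.3 ± 14.8 CPM in SPF WT mice and lay at 189, 247 and 256 CPM in SPF 5xFAD mice. GF mice had S-phase sums of 305 ± 16.8 CPM (WT) and 398 ± 67.6 CPM (5xFAD) and mitotic sums of 120 ± 18.1 and 282 ± 60.2 CPM. In ABX mice the S-phase sums were 249 ± 19 and 402 ± 70.9 CPM, and the mitotic sums 78.8 ± 33.2 and 259 ± 88.1 CPM.

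**Figure D1:**
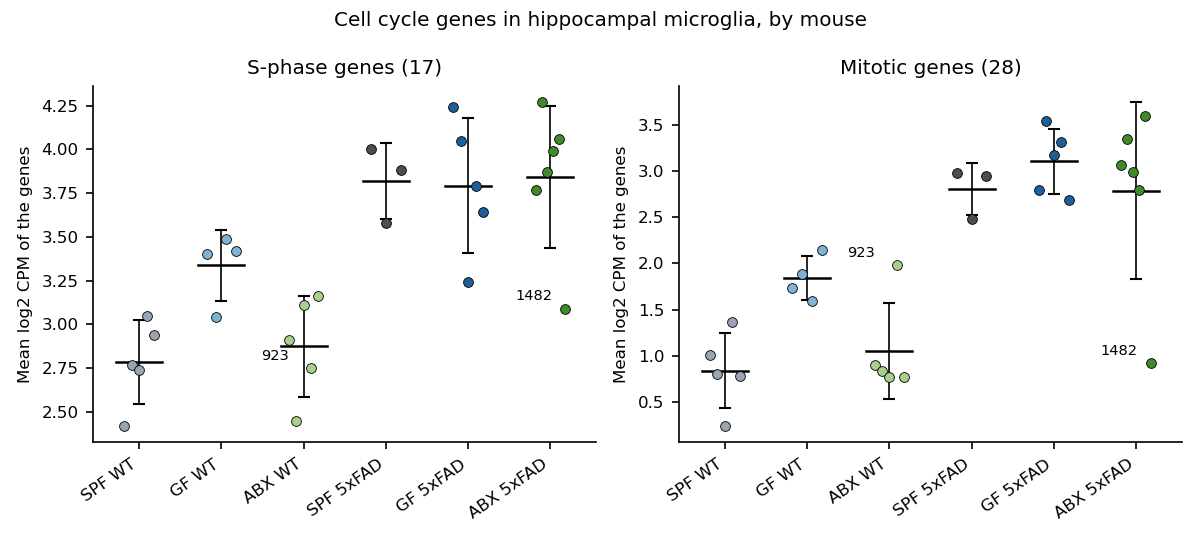
Mean log2 CPM of the 17 S-phase genes (left) and the 28 mitotic genes (right) in each mouse, by group; points are mice, lines are group means and bars are SD. Mitotic genes lie between 2.48 and 3.60 in all 5xFAD mice but FAD_ABX_1482 (0.92), and between 0.24 and 2.15 in WT mice, where WT_ABX_923 stands at 1.98.

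By edgeR's quasi-likelihood test, 23 of the 47 genes were higher and 0 lower in SPF 5xFAD than SPF WT mice, where 3.73% of all 15298 genes tested were higher (4.57% were called in either direction). The median log2 fold change was 1.70 for the 47 genes and -0.03 for all genes. In GF mice 16 genes were higher and 0 lower, with 9.43% of all genes higher and 6.2% lower (15.6% in either direction), and the medians were 0.96 and -0.03. In ABX mice 33 were higher and 0 lower, with 9.45% of all genes higher and 4.98% lower (14.4% in either direction), and the medians were 1.51 and -0.01. In SPF mice the count was 15 without FAD_SPF_1144 (2.73% of all genes called) and 13 without FAD_SPF_1148 (3.34%). Without FAD_ABX_1482, 39 genes were higher in ABX mice, with a median of 1.71 and 13% of all genes called in either direction. As a mean over the 3 conditions, 44 of 47 genes were higher, against 14.3% of all genes (25.1% in either direction); the exceptions were *Cdc6*, *Cdt1* and *Tk1*. An F test over all 6 groups called 40 of the 47 genes and 33.2% of all genes.

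Of the 28 mitotic genes, 20 rose in SPF, 12 in GF and 23 in ABX 5xFAD mice, with medians of 1.81, 1.25 and 1.63. Of the 17 S-phase genes, 3, 4 and 9 rose, with medians of 0.72, 0.57 and 0.86. Of the 47 genes, 12 rose in each condition: 11 mitotic genes (*Ccna2*, *Ccnb2*, *Cdk1*, *Ube2c*, *Aurkb*, *Birc5*, *Plk1*, *Kif20a*, *Cenpa*, *Cenpe* and *Stmn1*) and 1 S-phase gene, *Rrm2*; 2.76% of all genes rose in each condition. By edgeR with all mice, another 9 genes passed in no condition taken alone, 6 of them S-phase genes. With voomWithQualityWeights 36 of the 47 genes rose in SPF mice, where 2154 of all 15298 genes were called. The S-phase genes that it added there were *Ccne1*, *Cdc6*, *Mcm2*, *Mcm3*, *Mcm6*, *Mcm7*, *Rrm1* and *Tyms*. By edgeR, an unadjusted p under 0.05 was reached by 39 genes in SPF (14.3% of all genes), 24 in GF (27.9%) and 42 in ABX mice (27.7%). The values of all 5xFAD mice lay above those of all WT mice for 38 genes in SPF mice (9.44% of all genes), for 18 in GF mice (9.14%) and for 10 in ABX mice (4.68%), or 28 in ABX mice without FAD_ABX_1482 (5.98%).

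The markers of other cells moved with some of these groups. Neutrophil markers were at 61.1 to 263 CPM in the SPF 5xFAD mice, in which the mean log2 CPM of the 47 genes was 3.31, 2.81 and 3.25, and at most 0.0495 CPM in GF 5xFAD mice, in which it was 2.99 to 3.61. Markers of border-associated macrophages (6 genes) summed to 3.48 to 8.09 CPM in SPF WT against 15.3 to 28.3 CPM in SPF 5xFAD mice and to 3.74 to 5.9 CPM in ABX WT against 32.8 to 242 CPM in ABX 5xFAD mice, without overlap. In GF mice they summed to 10.7 to 41.9 CPM (WT) and 9.43 to 77 CPM (5xFAD), with overlap. FAD_ABX_1482, with low cell cycle genes, had 108 CPM. Monocyte markers (5 genes) summed to 14.4 to 52 CPM in ABX 5xFAD, 16 to 39 CPM in SPF 5xFAD and 6.02 to 24.9 CPM in GF 5xFAD mice, against 6.76 to 8.57 CPM in SPF WT, 3.72 to 16.9 CPM in GF WT and 3.75 to 9.32 CPM in ABX WT mice, and the genotypes overlapped in GF mice alone. Neuroblast markers summed to at most 0.448 CPM, T and NK cell markers to at most 2.57 CPM, erythroid markers to at most 0.901 CPM and neuron markers to at most 18.3 CPM. Markers of oligodendrocyte precursors (6 genes), which can divide, moved with genotype. They summed to 0.352 to 1.05 CPM in SPF WT against 3.46 to 7.22 CPM in SPF 5xFAD mice and to 0.133 to 1.02 CPM in ABX WT against 2.04 to 7.05 CPM in ABX 5xFAD mice, without overlap. In GF mice they summed to 0.0453 to 2.37 CPM (WT) and 0.0495 to 13.6 CPM (5xFAD), with overlap. *Pdgfra*, *Olig2*, *Sox10* and *Lhfpl3* of this list had a median of 0 CPM over the 28 mice, and *Cspg4* one of 0.845 CPM and a highest value of 13.1 CPM. The microglial markers were lower in 5xFAD mice, with every WT mouse at 51582 CPM or above and every 5xFAD mouse at 50816 CPM or below. B cell (548 to 807 CPM) and oligodendrocyte markers (48.8 to 102 CPM) were found in every library, and the genotypes overlapped in each condition. The sums of astrocyte and endothelial markers overlapped in SPF and ABX mice but were lower in GF 5xFAD mice, without overlap: astrocyte markers had a median of 255 CPM in GF WT mice and lay at 153 to 188 CPM in GF 5xFAD mice, and endothelial markers lay at 34.2 to 41 CPM and 9.73 to 28.6 CPM. The astrocyte sum was mostly *Slc1a3* (151 to 324 CPM over the 28 mice), and *Gfap*, *Aqp4*, *Aldh1l1* and *Gja1* had medians of at most 1.19 CPM. The endothelial sum was mostly *Pecam1* and *Kdr* (medians of 26.6 and 8.78 CPM), with *Cldn5* at most 0.0808 CPM. The part of these cells in the results was not tested.

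**Figure D2:**
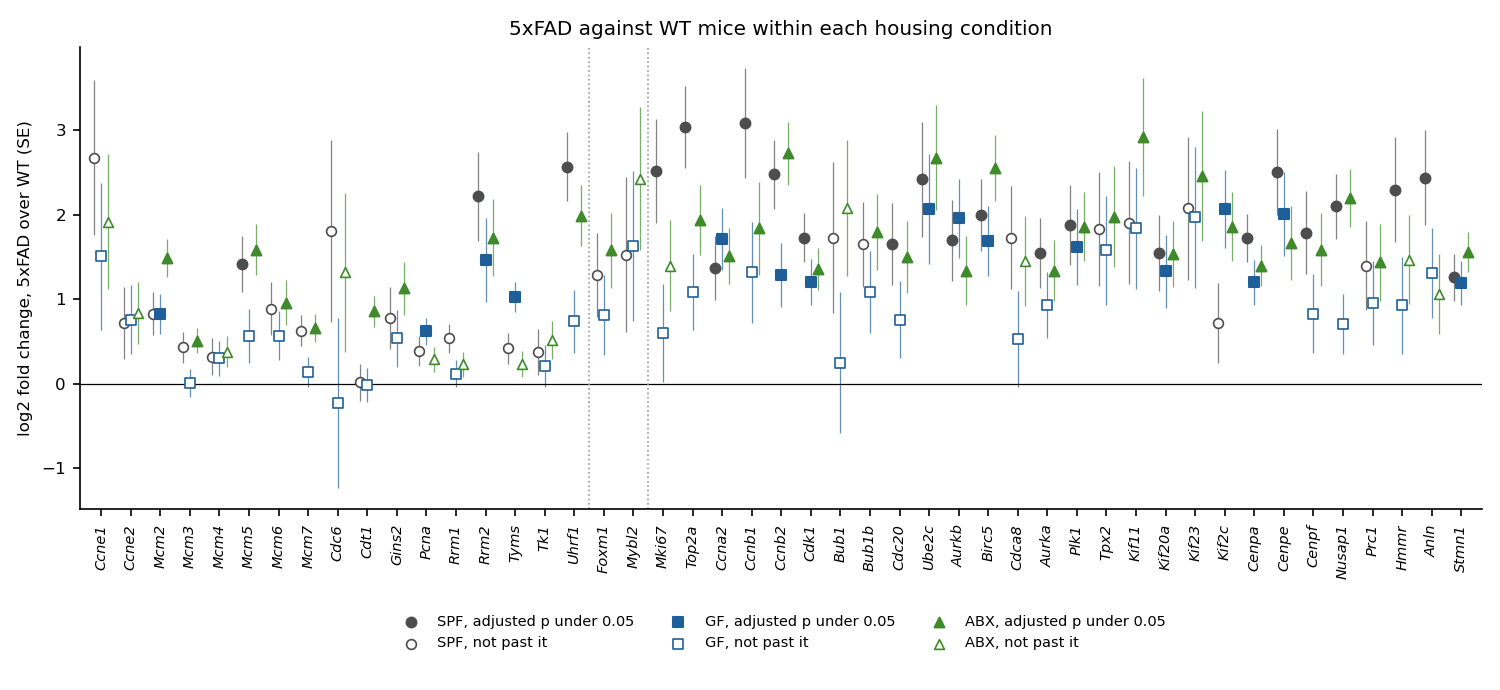
Log2 fold change of 5xFAD over WT mice (edgeR, bars are SE) for all 47 genes in SPF, GF and ABX mice; filled symbols passed an adjusted p of 0.05, and dotted lines separate S-phase genes, the 2 transcription factors and mitotic genes. Nearly all symbols lie above 0, from -0.23 to 3.09, and most S-phase genes lie below most mitotic genes.

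Licensing of origins loads the MCM2-7 helicase, with the help of CDC6 and CDT1, onto DNA that is to be copied. *Mcm2* was at 6.76, 12.5, 15.8, 18.7 and 19.6 CPM in SPF WT mice and at 22.1, 25.7 and 30.6 CPM in SPF 5xFAD mice. GF WT mice had 14, 17.8, 17.9 and 28.7 CPM, and GF 5xFAD mice 30.8, 31.6, 35.2, 37.9 and 38.8 CPM. The ABX WT mice lay at 6.64, 8.79, 11.9, 12.7 and 15.2 CPM, and ABX 5xFAD mice ran from 24.8 over a median of 33.2 to 35 CPM. The genotypes did not overlap in any condition, and FAD_ABX_1482 was the lowest of its group but above every ABX WT mouse. The log2 fold change of *Mcm2* was 0.83 ± 0.253 in SPF (SE, edgeR adjusted p = 0.0551), 0.83 ± 0.239 in GF (adjusted p = 0.0161) and 1.49 ± 0.222 in ABX mice (adjusted p = 1.6e-05). In SPF mice *Mcm2* was called by DESeq2, by voomWithQualityWeights and by edgeR without FAD_ABX_1482.

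The other helicase genes were less even. *Mcm5* was at 11 ± 3.16 CPM in SPF WT and 29.6 ± 2.51 CPM in SPF 5xFAD mice, 16.7 ± 4.03 CPM in GF WT and 24.7 ± 11.7 CPM in GF 5xFAD mice, and at 9.83 ± 6.27 CPM in ABX WT and 30 ± 5.26 CPM in ABX 5xFAD mice (mean ± SD). The genotypes did not overlap in SPF and ABX mice. *Mcm5* rose by a log2 fold change of 1.42 ± 0.336 in SPF (edgeR adjusted p = 0.0084) and 1.59 ± 0.297 in ABX mice (adjusted p = 0.000331), and had 0.57 ± 0.319 in GF mice (adjusted p = 0.248). *Mcm3*, *Mcm6* and *Mcm7* rose in ABX mice, by 0.51, 0.96 and 0.66 on the log2 scale. They did not pass edgeR's test with all mice in SPF mice (0.43, 0.89 and 0.63) or GF mice (0.01, 0.57 and 0.14). In SPF mice voomWithQualityWeights called *Mcm3*, *Mcm6* and *Mcm7*. DESeq2 called *Mcm7* in SPF mice, as did edgeR without FAD_ABX_1482. *Mcm3* was at 71 ± 7.16 CPM in SPF WT and 95.4 ± 8.47 CPM in SPF 5xFAD mice, 83.7 ± 7.22 CPM in GF WT and 84.5 ± 18.6 CPM in GF 5xFAD mice, and at 62.8 ± 3.25 CPM in ABX WT and 89.3 ± 26.2 CPM in ABX 5xFAD mice (mean ± SD). *Mcm6* was at 22.2 ± 4.27 CPM in SPF WT and 41.3 ± 5.63 CPM in SPF 5xFAD mice, 23.4 ± 13.8 CPM in GF WT and 35.1 ± 14.7 CPM in GF 5xFAD mice, and at 24.7 ± 4.7 CPM in ABX WT and 48.2 ± 6.92 CPM in ABX 5xFAD mice (mean ± SD). *Mcm4* passed in no single condition, with log2 fold changes of 0.32, 0.30 and 0.38. *Mcm4* was at 22.9 ± 4.17 CPM in SPF WT and 28.6 ± 6.36 CPM in SPF 5xFAD mice, 25 ± 3.48 CPM in GF WT and 30.8 ± 4.38 CPM in GF 5xFAD mice, and at 22.6 ± 5.66 CPM in ABX WT and 29.4 ± 8.93 CPM in ABX 5xFAD mice (mean ± SD). Its groups differed by less than those of the other helicase genes named here in ABX mice. *Mcm7* was at 12.4, 15.9, 16, 18.8 and 19 CPM in ABX WT mice and ran from 19 over a median of 26.6 to 31.7 CPM in ABX 5xFAD mice. *Cdt1*, the licensing factor, was at 5.92, 5.95, 7.13, 8.86 and 9.16 CPM in ABX WT mice and ran from 7.82 over a median of 12.9 to 20.5 CPM in ABX 5xFAD mice; FAD_ABX_1482 held the lowest value and the other 5 lay above all ABX WT mice. *Cdt1* rose by 0.86 ± 0.185 in ABX mice (edgeR adjusted p = 0.00175), whereas its log2 fold change was 0.02 ± 0.219 in SPF and -0.01 ± 0.2 in GF mice. *Gins2*, part of the active helicase, rose in ABX mice (1.13, edgeR adjusted p = 0.0143), with the overlap with *Gse1* given above. *Cdc6* passed edgeR's test in no condition, and voomWithQualityWeights called it in SPF mice.

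Among genes for nucleotide supply, *Rrm2*, the S-phase subunit of ribonucleotide reductase, rose in SPF (2.22, edgeR adjusted p = 0.00931), GF (1.47, adjusted p = 0.0422) and ABX mice (1.73, adjusted p = 0.00913). *Rrm1*, the other subunit, had 0.54, 0.12 and 0.23 and was called in SPF mice by DESeq2 and voomWithQualityWeights but in none by edgeR. *Tk1*, thymidine kinase, had 0.38, 0.21 and 0.52 and passed in none. *Tyms*, which makes thymidylate, was at 15.6, 16, 16.2 and 16.5 CPM in GF WT mice and at 22.1, 32, 33.9, 37.8 and 38.1 CPM in GF 5xFAD mice. These groups did not overlap, and *Tyms* rose by 1.03 ± 0.174 (edgeR adjusted p = 7.81e-05). SPF WT mice had 13.7, 13.7, 14.2, 18.9 and 23.9 CPM and SPF 5xFAD mice 21.8, 22.8 and 22.9 CPM, so that the groups overlapped. For ABX WT mice the values were 15, 16.8, 20.3, 23 and 23.6 CPM, within reach of ABX 5xFAD mice at 19.3 to 27.2 CPM with a median of 22.9. The log2 fold change of *Tyms* was 0.42 ± 0.183 in SPF (edgeR adjusted p = 0.265) and 0.24 ± 0.154 in ABX mice (adjusted p = 0.342). With voomWithQualityWeights *Tyms* was called in SPF mice.

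*Pcna*, the sliding clamp of DNA polymerases, rose in GF mice only by this threshold, from 16.1 ± 1.89 to 24.8 ± 3.38 CPM (log2 fold change 0.62, edgeR adjusted p = 0.00765), with 0.39 in SPF (adjusted p = 0.285) and 0.29 in ABX mice (adjusted p = 0.198); the differences between conditions did not pass the test of the interaction. The cyclins E, which start S phase, passed edgeR's test in no single condition with all mice but did so as a mean over the 3: *Ccne1* with 2.04 (adjusted p = 0.00283) and *Ccne2* with 0.78 (adjusted p = 0.0134). Without FAD_ABX_1482 *Ccne1* passed in SPF and in ABX mice (2.17 in ABX mice, edgeR adjusted p = 0.0373). DESeq2 and voomWithQualityWeights called *Ccne1* in SPF mice, and voomWithQualityWeights called *Ccne2* in ABX mice.

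*Uhrf1* brings the maintenance methyltransferase to newly copied DNA and had the smallest adjusted p of the S-phase genes in SPF mice. It was at 0.729, 0.979, 0.982, 1.51 and 1.79 CPM in SPF WT mice and at 5.86, 7.53 and 7.82 CPM in SPF 5xFAD mice. ABX WT mice had 1.12, 1.66, 1.78, 1.89 and 2.17 CPM, and ABX 5xFAD mice ran from 3.32 over a median of 6.96 to 9.32 CPM. In GF mice the genotypes overlapped, with 2.42, 3.99, 6.8 and 9.34 CPM in WT and 3.92, 6.49, 7.53, 12.2 and 17.1 CPM in 5xFAD mice. *Uhrf1* was 5.92-fold higher in SPF (edgeR adjusted p = 8.39e-05) and 3.96-fold in ABX 5xFAD mice (adjusted p = 0.000233), and 1.67-fold in GF 5xFAD mice (adjusted p = 0.194).

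*Mki67* encodes Ki-67, the common marker of cycling cells. It was at 1.51, 2.76, 2.94, 4.39 and 4.95 CPM in SPF WT mice and at 16.7, 18.2 and 22.5 CPM in SPF 5xFAD mice. GF WT mice had 2.47, 8.19, 8.46 and 10.4 CPM and GF 5xFAD mice 6.44, 7.69, 9.77, 12 and 20 CPM. In ABX WT mice it was at 1.49, 1.95, 2.47, 4.43 and 12.5 CPM and ABX 5xFAD mice ran from 0.912 over a median of 12 to 20.7 CPM. The groups were apart in SPF mice and overlapped in GF and ABX mice; FAD_ABX_1482 was the lowest of all 28 mice and WT_ABX_923 the highest WT mouse. *Mki67* rose 5.74-fold in SPF 5xFAD mice (edgeR adjusted p = 0.011), with 1.52-fold in GF (adjusted p = 0.546) and 2.63-fold in ABX mice (adjusted p = 0.0813). Without FAD_ABX_1482 the last passed the test, at 3.11-fold (adjusted p = 0.0178).

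*Top2a*, the topoisomerase that untangles chromosomes, changed in SPF and ABX mice. Its level was 0.782, 2.95, 3.7, 3.92 and 6.77 CPM in SPF WT mice and 23.9, 32.5 and 34.3 CPM in SPF 5xFAD mice. GF mice had 5.59, 8.46, 10.5 and 14.8 CPM (WT) and 12, 15.3, 19.9, 25.9 and 31.2 CPM (5xFAD). The ABX WT mice lay at 4.01, 4.28, 6.81, 7.31 and 15.7 CPM and ABX 5xFAD mice at 8.14 to 49.8 CPM with a median of 29.6. SPF groups were well apart, while in GF mice 1 and in ABX mice 1 value of the 5xFAD group lay below the highest WT mouse. *Top2a* was 8.25-fold higher in SPF (edgeR adjusted p = 7.95e-05), 2.13-fold in GF (adjusted p = 0.104) and 3.83-fold in ABX mice (adjusted p = 0.00168).

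Cyclins A and B bind CDK1, and together they drive entry into mitosis. *Ccnb2* was at 0.503, 0.991, 1.26, 1.39 and 1.8 CPM in SPF WT and at 5.56, 7.23 and 7.37 CPM in SPF 5xFAD mice. GF mice had 3.17, 4.25, 5.69 and 5.73 CPM (WT) and 6.49, 8.95, 10.6, 14.1 and 17.5 CPM (5xFAD). For ABX WT mice the values were 0.654, 0.661, 0.916, 1.65 and 3.26 CPM and for ABX 5xFAD mice 5.94 to 13.3 CPM with a median of 9.8. Every 5xFAD mouse, FAD_ABX_1482 included, lay above every WT mouse of its condition. *Ccnb2* rose 5.57-fold in SPF (edgeR adjusted p = 0.000138), 2.45-fold in GF (adjusted p = 0.0181) and 6.64-fold in ABX mice (adjusted p = 3.91e-06), the smallest adjusted p of the 47 genes in that condition.

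*Cdk1* was likewise apart in each condition. SPF mice had 3.74, 4.36, 4.91, 5.75 and 6.38 CPM (WT) and 12.1, 15.3 and 22.8 CPM (5xFAD), and GF mice 8.8, 9.22, 9.99 and 12.6 CPM (WT) and 16.9, 21.4, 23.3, 24.8 and 31.3 CPM (5xFAD). ABX WT mice had 4.03, 5.15, 5.23, 7.28 and 11.5 CPM and ABX 5xFAD mice 11.6 to 28.1 CPM with a median of 16. FAD_ABX_1482, low for most genes, held the highest *Cdk1* value of its group. *Cdk1* rose 3.31-fold in SPF (edgeR adjusted p = 0.000145), 2.32-fold in GF (adjusted p = 0.00208) and 2.57-fold in ABX mice (adjusted p = 0.000272). *Ccna2* rose by a log2 fold change of 1.37, 1.71 and 1.51 in the 3 conditions and stood at 2.15 CPM in FAD_ABX_1482, against 9.46 to 19.2 CPM in the other ABX 5xFAD mice. *Ccnb1* was at 0.327 ± 0.206 CPM in SPF WT and 2.86 ± 1.07 CPM in SPF 5xFAD mice, 1.38 ± 0.956 CPM in GF WT and 3.42 ± 1.68 CPM in GF 5xFAD mice, and at 0.813 ± 0.709 CPM in ABX WT and 2.95 ± 1.41 CPM in ABX 5xFAD mice (mean ± SD). *Ccnb1* rose in SPF (3.09, adjusted p = 0.00258) and ABX mice (1.84, adjusted p = 0.023), and had 1.32 in GF mice (adjusted p = 0.142).

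**Figure D3:**
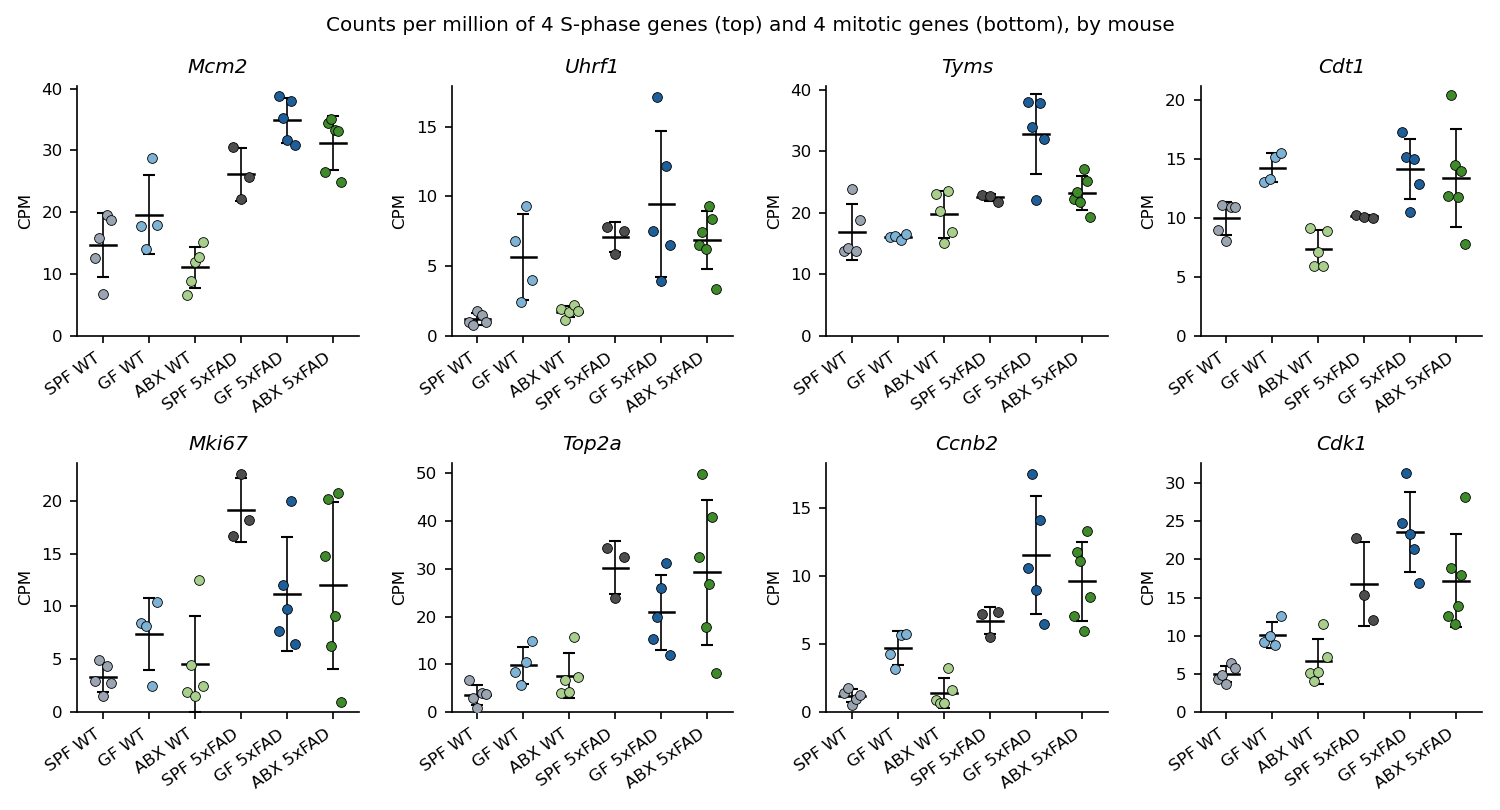
CPM of 4 S-phase genes (*Mcm2*, *Uhrf1*, *Tyms*, *Cdt1*) and 4 mitotic genes (*Mki67*, *Top2a*, *Ccnb2*, *Cdk1*) in each mouse by group, with axes from 0; lines are means and bars SD. *Ccnb2* is at 0.503 to 5.73 CPM in WT and at 5.56 to 17.5 CPM in 5xFAD mice, while *Tyms* stands out in GF 5xFAD mice.

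Genes of the chromosomal passenger complex, which corrects the attachment of chromosomes to the spindle, were called in part. *Birc5* (survivin) was at 0.991, 1.17, 1.26, 2 and 2.53 CPM in SPF WT and at 5.07, 5.6 and 8.6 CPM in SPF 5xFAD mice, and at 1.66, 3, 3.61 and 3.97 CPM in GF WT and 4.2, 8.28, 10.2, 13 and 13.7 CPM in GF 5xFAD mice. In ABX WT mice it was at 0.463, 0.989, 1.84, 1.9 and 3.09 CPM and in ABX 5xFAD mice at 3.71 to 12.5 CPM with a median of 10.8. The genotypes did not overlap in any condition. *Birc5* rose 4-fold in SPF (edgeR adjusted p = 0.00333), 3.23-fold in GF (adjusted p = 0.00453) and 5.9-fold in ABX mice (adjusted p = 2.32e-05). *Aurkb*, its kinase, rose in the 3 conditions by 1.70, 1.96 and 1.34 on the log2 scale, and *Cdca8* (borealin) had 1.73, 0.53 and 1.46 and did not pass with all mice. Without FAD_ABX_1482 *Cdca8* passed in SPF and in ABX mice (1.72 in ABX mice, edgeR adjusted p = 0.00097), and with DESeq2 it passed in ABX mice.

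Among centromere proteins, *Cenpa*, the histone variant that marks centromeres, was at 2.07, 2.1, 3.42, 3.49 and 4.87 CPM in SPF WT and at 7.87, 11.2 and 12.8 CPM in SPF 5xFAD mice. GF WT mice had 6.04, 6.55, 9.66 and 10.2 CPM and GF 5xFAD mice 14.3, 15.6, 17.9, 20.5 and 24.6 CPM. The ABX WT mice lay at 3.13, 4.28, 4.99, 6.24 and 7.67 CPM and ABX 5xFAD mice at 10.5 to 19.4 CPM with a median of 12.5. No 5xFAD mouse overlapped the WT mice of its condition, and the rise was 3.31-fold in SPF (edgeR adjusted p = 0.000143), 2.3-fold in GF (adjusted p = 0.00206) and 2.64-fold in ABX mice (adjusted p = 0.000167). *Cenpe*, a kinetochore motor, rose by 2.51, 2.01 and 1.67 on the log2 scale, and *Cenpf* rose in SPF (1.79) and ABX mice (1.59).

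Of the mitotic kinase genes, *Plk1* rose in each condition (log2 fold changes of 1.88, 1.62 and 1.86 in SPF, GF and ABX mice) and *Aurka* in SPF and ABX mice (1.55 and 1.34, with 0.93 in GF mice). *Ube2c*, the ubiquitin-conjugating enzyme of the anaphase-promoting complex, rose by 2.42, 2.07 and 2.68, and *Cdc20*, its activator, by 1.66 in SPF and 1.50 in ABX mice. Of the spindle checkpoint genes, *Bub1b* rose in ABX mice (1.80), as did *Tpx2*, an activator of Aurora A (1.98), and *Bub1* in none with all mice (1.73, 0.25 and 2.08) but in ABX mice without FAD_ABX_1482 (2.34, edgeR adjusted p = 0.0228). In SPF mice *Bub1b* and *Tpx2* were called by voomWithQualityWeights and by edgeR without FAD_ABX_1482, and *Bub1b* by DESeq2. *Tpx2* was also called by edgeR in GF mice without FAD_ABX_1482. Among motor proteins *Kif20a*, with the overlap given above, rose in each condition (1.55, 1.33 and 1.54), and *Kif11* (2.92) and *Kif23* (2.46) in ABX mice. With voomWithQualityWeights *Kif11* and *Kif23* were called in SPF mice too, and without FAD_ABX_1482 edgeR called *Kif11* in GF mice.

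*Kif2c*, a kinesin that removes tubulin from spindle ends, was at 1.57, 1.61, 3.33 and 4.41 CPM in GF WT and at 6.91, 8.19, 10.3, 13 and 18.8 CPM in GF 5xFAD mice. In ABX mice it was at 1.06, 1.12, 1.13, 4.47 and 4.99 CPM (WT) and ran from 4.62 over a median of 9.08 to 12.8 CPM (5xFAD). SPF mice had 1.01, 2.36, 2.42, 2.85 and 3.27 CPM (WT) and 3.44, 3.45 and 4.94 CPM (5xFAD). The GF groups were well apart, the SPF groups adjoined, and the lowest ABX 5xFAD mouse lay below the highest ABX WT mouse. *Kif2c* rose 4.2-fold in GF (edgeR adjusted p = 0.00183) and 3.63-fold in ABX mice (adjusted p = 0.00219), with 1.65-fold in SPF mice (adjusted p = 0.583).

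The spindle and cytokinesis genes *Nusap1* and *Stmn1* come last. *Nusap1*, which bundles microtubules, was at 1.1, 1.12, 1.42, 1.59 and 1.64 CPM in SPF WT and at 4.77, 6.24 and 6.68 CPM in SPF 5xFAD mice, and at 3.48, 3.65, 3.99 and 4.74 CPM in GF WT and 3.27, 4.74, 7.69, 8.33 and 8.44 CPM in GF 5xFAD mice. For ABX WT mice the values were 0.706, 0.956, 1.78, 2.62 and 2.92 CPM and for ABX 5xFAD mice 3.52 to 12.2 CPM with a median of 8.39. It overlapped in GF mice alone, and rose 4.27-fold in SPF (edgeR adjusted p = 0.000521) and 4.59-fold in ABX mice (adjusted p = 2.91e-05), with 1.64-fold in GF mice (adjusted p = 0.193).

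*Stmn1* (stathmin), which destabilizes microtubules, was at 1.63, 1.69, 1.84, 1.94 and 2.62 CPM in SPF WT and at 3.64, 4.46 and 5.87 CPM in SPF 5xFAD mice. GF mice had 3.23, 3.4, 3.99 and 4.61 CPM (WT) and 6.18, 7.27, 8.33, 10.8 and 10.9 CPM (5xFAD), and ABX mice 1.32, 1.96, 2.17, 2.41 and 2.51 CPM (WT) and 4.17 to 9.11 CPM with a median of 5.84 (5xFAD). The genotypes were apart in each condition. *Stmn1* rose 2.39-fold in SPF (edgeR adjusted p = 0.00395), 2.29-fold in GF (adjusted p = 0.00154) and 2.95-fold in ABX mice (adjusted p = 2.76e-05). *Anln* and *Hmmr* rose in SPF mice (2.44 and 2.30), with 1.06 and 1.47 in ABX mice, and *Prc1* rose in ABX mice (1.44), with 1.40 in SPF mice. Without FAD_ABX_1482 *Hmmr* rose in ABX mice as well (1.70, edgeR adjusted p = 0.0152), and *Anln* did not pass (1.18, adjusted p = 0.117). With voomWithQualityWeights *Hmmr* and *Anln* passed in ABX mice and *Prc1* in SPF mice, and *Hmmr* passed in ABX mice with DESeq2 too.

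The transcription factor genes were low. *Foxm1* rose in ABX mice (1.58, edgeR adjusted p = 0.014), with 1.29 in SPF and 0.81 in GF mice. *Mybl2*, with at most 55 reads in a library, had 1.53, 1.63 and 2.43, and passed the test as a mean over the conditions (1.86, adjusted p = 0.0069). In ABX mice it also passed without FAD_ABX_1482 (2.69, edgeR adjusted p = 0.0174) and with DESeq2.

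FAD_ABX_1482 was the lowest of all 5xFAD mice in both parts, with mean log2 CPM of 3.09 for S-phase genes and 0.92 for mitotic genes. Its median difference from the other mice of its group was -0.40 for S-phase and -1.73 for mitotic genes. It was the lowest of its group for 35 of the 47 genes and the highest for *Gins2*, *Cdk1* and *Kif2c*. S-phase and mitotic genes parted in WT_ABX_923 and FAD_GF_184. WT_ABX_923 was the highest of its group for 19 of 28 mitotic genes but for 3 of 17 S-phase genes, with means of 1.98 and 2.75. FAD_GF_184 had the lowest S-phase mean of its group, 3.24, and a mitotic mean of 3.17, in the middle of it.

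**Figure D4:**
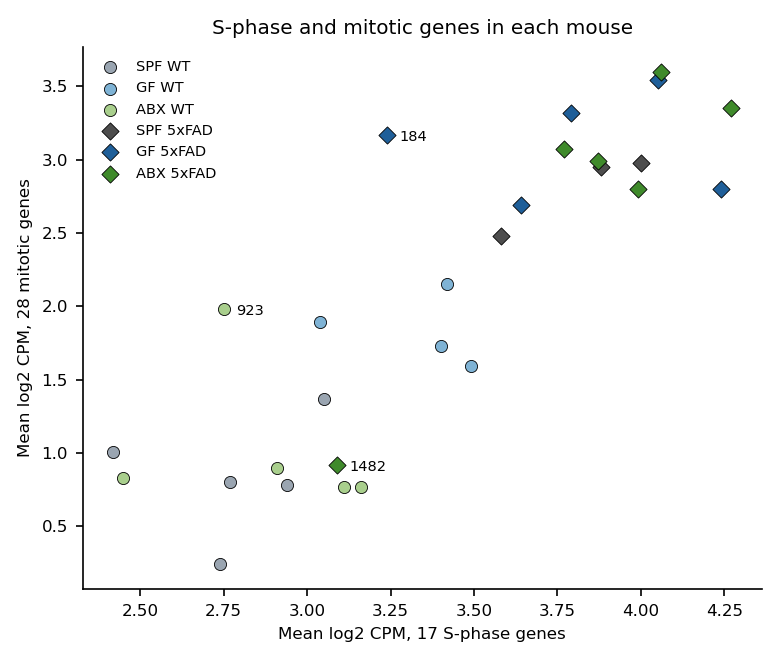
Mean log2 CPM of the 28 mitotic genes against that of the 17 S-phase genes, with 1 point for each mouse (circles WT, diamonds 5xFAD). All 5xFAD mice but FAD_ABX_1482 lie at a mitotic mean of 2.48 or above, and GF WT mice (1.59 to 2.15) lie between the other WT mice and the 5xFAD mice, with WT_ABX_923 (1.98) beside them.

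Among WT mice, the cell cycle genes were higher in GF than in SPF mice for a few members by the test. *Uhrf1* rose 4.74-fold (edgeR adjusted p = 0.00395), *Ccnb2* 3.9-fold (adjusted p = 0.0105), *Cenpa* 2.52-fold (adjusted p = 0.011) and *Nusap1* 2.88-fold (adjusted p = 0.0286). These 4 genes higher and 0 lower compare with 0.869% of all genes higher (1.62% in either direction). The median log2 fold change of the 47 genes was 0.84, that of all genes -0.01, and 45 of 47 had a value above 0; 20 of 47 had an unadjusted p under 0.05, against 16.6% of all genes. For 12 genes every GF WT mouse lay above every SPF WT mouse, against 5.5% of all genes. The count called was 10 with DESeq2 (4.71% of all genes), 12 with voomWithQualityWeights (10.7%) and 14 with only the 2 groups compared (9.6%); it was 2 without WT_GF_229 or WT_GF_231 (0.352% and 0.424%), 7 without FAD_ABX_1151 (2.91%) and 8 without FAD_ABX_1482 (2.92%). The mean log2 CPM of the mitotic genes was 1.84 ± 0.24 in GF WT and 0.84 ± 0.41 in SPF WT mice, and the S-phase means were 3.34 ± 0.20 and 2.78 ± 0.24. Housing cannot be told apart from numbering style or origin here, and border-associated macrophage markers summed to 10.7 to 41.9 CPM in GF WT and 3.48 to 8.09 CPM in SPF WT mice, a difference whose part was not tested.

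Between ABX WT and SPF WT mice 0 of 47 genes were called in edgeR (0% of all genes) and 0 in DESeq2 (2 of all 15298 genes). The median log2 fold change was 0.10, and 7 of the 47 genes had an unadjusted p under 0.05, against 4.49% of all genes. No member lay higher in every ABX WT mouse than in every SPF WT mouse (0.464% of all genes).

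ABX WT mice had lower values than GF WT mice for several members. Border-associated macrophage markers moved with this comparison too, at 3.74 to 5.9 CPM in ABX WT and 10.7 to 41.9 CPM in GF WT mice, and their part was not tested. Here too the groups cannot be told apart from numbering style. Of the 47 genes, 8 fell and 0 rose, against 4.48% of all genes lower and 2.4% higher (6.88% in either direction), and the median was -0.60 against 0.01 for all genes; 17 of 47 had an unadjusted p under 0.05, against 22.6% of all genes. *Cdt1* fell by 0.94 on the log2 scale (edgeR adjusted p = 0.00607), *Uhrf1* by 1.70 (adjusted p = 0.00792), *Ccnb2* by 1.70 (adjusted p = 0.00884) and *Mcm2* by 0.82 (adjusted p = 0.0354). *Stmn1*, *Mcm7*, *Gins2* and *Nusap1* fell by 0.87, 0.58, 1.12 and 1.15. *Cdt1* lay at 13.1, 13.3, 15.2 and 15.5 CPM in GF WT mice, above all ABX WT mice and above SPF WT mice (8.05, 8.97, 10.9, 10.9 and 11.1 CPM). For 9 genes every GF WT mouse lay above every ABX WT mouse (6.17% of all genes). *Nusap1*, at an adjusted p of 0.0498, lost its call in 28 of 37 alternatives. The count was 3 without WT_GF_230 (3.97% of all genes called), WT_GF_231 (3.83%) or WT_ABX_911 (3.29%), and 4 without WT_GF_229 (2.91%), WT_ABX_909 (4.2%), WT_ABX_910 (4.09%) or FAD_SPF_1148 (5.53%).

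Among 5xFAD mice, few of these genes passed the test between housing and treatment groups. In GF against SPF 5xFAD mice *Stmn1* rose 1.87-fold (edgeR adjusted p = 0.0336) and *Kif2c* 2.9-fold (adjusted p = 0.0388). These 2 of 47 genes higher and 0 lower compare with 6.97% of all genes higher (12.8% in either direction), and the median was 0.34 against 0.02 for all genes; 6 of 47 had an unadjusted p under 0.05, against 26.8% of all genes. For 6 members every GF 5xFAD mouse lay above every SPF 5xFAD mouse (10.4% of all genes). *Mki67* and *Top2a* had log2 fold changes of -0.77 ± 0.603 and -0.53 ± 0.466 (adjusted p = 0.449 and 0.507), in the other direction. The count was 0 without FAD_SPF_1146 (4.31% of all genes called), FAD_SPF_1148 (3.41%) or FAD_GF_182 (10.7%), 1 without FAD_SPF_1144 (9.76%), FAD_GF_181 (10.6%) or FAD_GF_185 (11.2%), and 4 without FAD_GF_184 (10.2%). With library size alone as the scaling it was 0, with 12.6% of all genes called.

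ABX against SPF 5xFAD mice had 0 of 47 genes called in edgeR (0% of all genes) and 0 in DESeq2 (8 of all 15298 genes), with 1 of 47 at an unadjusted p under 0.05 against 7.09% of all genes, and a median of 0.16. In ABX against GF 5xFAD mice *Tyms* fell by 0.50 on the log2 scale (edgeR adjusted p = 0.0334), which makes 1 of 47 lower and 0 higher, against 6.07% of all genes lower and 4.52% higher (10.6% in either direction), with a median of -0.09; 3 of 47 had an unadjusted p under 0.05, against 25.5% of all genes. This call was lost without any 1 of 6 mice: FAD_GF_181, FAD_GF_182 and FAD_GF_185 and FAD_ABX_1151, FAD_ABX_1452 and FAD_ABX_1453.

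The effect of genotype was compared between conditions by interaction terms. Genotype lies within 1 numbering style in GF mice but across styles in SPF and ABX mice. The interactions with GF mice therefore cannot be told apart from style. The rise in 5xFAD mice was not shown to differ between GF and SPF mice. By edgeR 0 of 47 genes passed (0% of all genes), and by DESeq2 0 (25 of all 15298 genes). At an unadjusted p under 0.05 there were 8 of 47 genes, against 8.52% of all genes. The median interaction was -0.44, a smaller log2 fold change in GF mice, against 0.01 for all genes. Nor was the rise shown to differ between ABX and SPF mice. Here 0 of 47 genes passed by edgeR (0% of all genes) and 0 by DESeq2 (1 of all 15298 genes). With an unadjusted p under 0.05 there was 1 gene, against 6.75% of all genes, and the median was 0.04. Between ABX and GF mice 0 of 47 passed, against 1.76% of all genes (9 at an unadjusted p under 0.05 against 15.9%), with a median of 0.49. The smallest p-values there were those of *Tyms* (-0.79 ± 0.23, edgeR adjusted p = 0.0682) and *Cdt1* (0.87 ± 0.271, adjusted p = 0.0941). Without FAD_ABX_1482, *Cdt1* (0.98, adjusted p = 0.0327) and *Nusap1* (1.65, adjusted p = 0.0453) passed, with 2.55% of all genes called, and DESeq2 called *Cdt1* and *Tyms*, with 3.77% of all genes called; 1 gene passed without WT_ABX_923 (1.89% of all genes), WT_ABX_932 (2.54%), FAD_GF_184 (1.16%) or FAD_ABX_1455 (2.33%).

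Other genes of the pathway were followed in lists beside the 47. Of 47 other mitotic genes tested, 14 rose in SPF, 10 rose and 2 fell in GF and 23 rose in ABX 5xFAD mice against WT mice, with medians of 1.25, 0.77 and 1.46. Over all genes, 3.73% rose in SPF, 9.43% rose and 6.2% fell in GF, and 9.45% rose and 4.98% fell in ABX mice, and the counts of this and the next list are to be read against these shares. *Spc24* and *Spc25*, subunits of the NDC80 complex at kinetochores, rose 10-fold (edgeR adjusted p = 0.000607) and 3.78-fold (adjusted p = 0.00102) in SPF mice, *Spc24* from 2 to 8 reads in WT to 31 to 51 reads in 5xFAD libraries. *Asf1b*, a histone chaperone, rose 2.38-fold in SPF and 2.35-fold in GF mice. Of 35 other replication genes, 1 rose in SPF, 1 fell in GF and 6 rose and 1 fell in ABX mice, with medians of 0.09, 0.07 and 0.21; in SPF and GF mice these counts do not exceed the shares over all genes. *Chaf1b*, a subunit of the factor that loads histones on copied DNA, rose 3.85-fold in SPF (adjusted p = 0.0163) and 2.69-fold in ABX mice (adjusted p = 0.0248).

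Of 18 genes for pocket proteins, E2F factors and MuvB subunits, 1 rose in SPF, 1 rose and 1 fell in GF, and 2 rose and 2 fell in ABX 5xFAD mice, beside 4.57%, 15.6% and 14.4% of all genes called in either direction. *E2f1*, an activator of S-phase genes, rose in each condition: 3.04-fold in SPF (edgeR adjusted p = 0.0115), 2.34-fold in GF (adjusted p = 0.0242) and 3.06-fold in ABX mice (adjusted p = 0.00171). Of 6 genes for D cyclins, G1 kinases and *Cdk2*, 0 rose in SPF mice by edgeR (2 had an unadjusted p under 0.05) and 1, *Cdk4*, rose in GF (1.24-fold, adjusted p = 0.0293) and ABX mice (1.32-fold, adjusted p = 0.00257), where 9.43% and 9.45% of all genes rose. *Ccnd1*, a D cyclin that carries growth signals to the cell cycle, was at 34.5 to 68.7 CPM in SPF WT mice and had log2 fold changes of -0.00, 0.11 and 0.38 in the 3 conditions (adjusted p = 1, 0.826 and 0.272).

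Of 6 genes tested for inhibitors of cyclin-dependent kinases, 1 rose and 1 fell in SPF, 2 rose in GF, and 2 rose and 1 fell in ABX mice, beside 4.57%, 15.6% and 14.4% of all genes called in either direction. *Cdkn2c* (p18) rose 2.11-fold in SPF (edgeR adjusted p = 0.0268), 1.79-fold in GF (adjusted p = 0.0368) and 1.84-fold in ABX mice (adjusted p = 0.0164). *Cdkn1a* (p21) was at 11.2, 11.4, 12.9, 16.4 and 17.5 CPM in SPF WT and at 18.5, 19 and 22.2 CPM in SPF 5xFAD mice, and at 15.3, 19, 19 and 21.7 CPM in GF WT and 21.8, 23.6, 25.6, 26.9 and 33.3 CPM in GF 5xFAD mice. The genotypes did not overlap in either condition. *Cdkn1a* rose 1.4-fold in GF (adjusted p = 0.0373) and 1.65-fold in ABX mice (adjusted p = 0.000836), with 1.43-fold in SPF mice (adjusted p = 0.0918). *Cdkn1c* (p57) fell by 0.67 on the log2 scale in SPF mice (adjusted p = 0.0417) and *Cdkn1b* (p27) by 1.00 in ABX mice (adjusted p = 0.0112).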

How the data were processed

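Microglia were sorted from the hippocampus of 28 mice, and RNA-seq libraries, not stranded, were sequenced, 1 for each mouse. The authors deposited raw read counts per gene, not normalised; the submitters' processing notes name STAR 2.7.2 and featureCounts 1.6.2, and the study's methods name the mouse genome GRCm38 with GENCODE annotation, whereas the processing notes name a human build. Groups follow the genotype and housing of the labels. Depth was 14441610 to 29977395 counts in a library, and members with few reads are the least precise. The 92 spike-in entries were left out (at most 12 reads in a library).

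Genes were filtered with filterByExpr (minimum count 10, minimum total 15), which left 15298 of 48587, and fitted with edgeR 4.0.16 in R 4.3.3 (TMM factors, quasi-likelihood, 1 model of 6 groups). P-values were adjusted over all genes tested (Benjamini-Hochberg, threshold 0.05, two-sided). Log2 CPM used a prior count of 2. For the 47 members and the pathway lists, CPM and log2 CPM were scaled to the counts of the genes tested with TMM factors. For the marker lists and *Cst7*, CPM used the library totals alone. The fit was tested on simulated data. The 47 members, the pathway lists and the 13 marker lists (microglia, neutrophil, monocyte, border-associated macrophage, T and NK cell, B cell, erythroid, neuron, neuroblast, oligodendrocyte precursor, oligodendrocyte, astrocyte and endothelial) were chosen with earlier results of these data known. Values in every mouse are given for *Mki67*, *Top2a* and up to 6 members with the smallest adjusted p in each comparison. Alternatives were RLE factors, library size alone, no filter on low counts, at least 10 counts in every library, DESeq2 1.42.0, voomWithQualityWeights (limma 3.58.1), only the groups compared, gene length offsets, 26 mice without FAD_ABX_1151 and FAD_ABX_1482, and each mouse left out in turn.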

Additional observations from a re-analysis of the deposited data

Results flagged for a closer look

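Each value here is a log2 CPM and was picked out because 1 mouse lay far from the rest of its group. Of 90 combinations of a group with a gene or a mean, 7 gave such a mouse, and chance gives about 5% of independent ones. These combinations are not independent, because the means contain the single genes and the same mouse recurs. SPF 5xFAD, with 3 mice, was not examined. FAD_ABX_1482 was at 1.63 for the mean of the 47 genes, where the next mouse was at 3.18. Its mean of the 28 mitotic genes was 0.92, against 2.80 in the next mouse. For *Ccna2* it was at 1.17, against 3.26, and for *Birc5* at 1.93, against 3.25. WT_ABX_923 had a mitotic mean of 1.98, where the next was at 0.90. For *Mki67*, WT_GF_230 was at 1.36, against 3.05. For *Kif2c*, WT_SPF_926 was at 0.14, against 1.30.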

How the results depend on the processing

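No paired analysis was possible because each title carries a mouse number of its own and no number is shared between groups. Of 2196 alternatives to 60 values of single genes, 2096 kept their side of the threshold, 100 lost the call and 0 reversed; of 1440 alternatives to medians, 1 moved beyond the spread (S-phase genes, ABX against GF WT mice, voomWithQualityWeights, -0.62 against -0.29). Library size alone moved the median of all genes for 5xFAD against WT in GF mice to -0.150. Counts of the 47 genes that moved were as follows, with the percent of all genes called in the same setting in parentheses, and the cause was not tested. With voomWithQualityWeights, 5xFAD against WT in SPF mice gave 36 (14.1%), GF against SPF 7 in 5xFAD (25.3%) and 12 in WT mice (10.7%), ABX against GF 5xFAD 0 (9.88%), and the ABX against GF interaction 2 (1.84%). With DESeq2, GF against SPF gave 4 in 5xFAD (16.5%) and 10 in WT mice (4.71%), and that interaction 2 (3.77%). With library size alone, GF against SPF 5xFAD and ABX against GF 5xFAD gave 0 each (12.6% and 11.3%) and ABX against GF WT 5 (6.45%). With no filter these gave 1 (5.19%), 0 (4.41%) and 4 (2.72%). In 26 mice, ABX against GF 5xFAD gave 0 (10.5%), GF against SPF WT 10 (4.31%) and the interaction 2 (2.34%), and gene length offsets gave 1 for the interaction (1.42%). With only the groups compared, GF against SPF gave 1 in 5xFAD (11.3%) and 14 in WT mice (9.6%) and ABX against GF 5xFAD 0 (1.89%). Leaving out each mouse in turn, 5xFAD against WT gave 13 to 29 in SPF, 12 to 18 in GF and 27 to 39 in ABX mice and 42 to 45 as a mean. GF against SPF gave 0 to 4 in 5xFAD and 2 to 8 in WT mice, ABX against GF 0 to 1 in 5xFAD and 3 to 9 in WT mice, ABX against SPF 0 to 0 in both, the interaction of ABX against GF 0 to 2, the other two 0 to 0, and all 6 groups 38 to 44. Counts of few reads limit *Mybl2*, *Ccne1* and *Cdc6*.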
